A study of Mus musculus with 8 samples.

Results

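Genes that megakaryocytes and platelets use, and that mark hematopoietic stem cells (HSCs) biased toward platelets, were followed in HSCs of mice with hemolytic anemia. They were 10 genes chosen by symbol, Vwf, Pf4, Clu, Selp, Treml1, Itga2b, Itgb3, Gp9, Gp5 and Gp1bb, and all 10 were found among the 15142 genes listed in the 3 expression tables. RNA-seq had been performed on HSCs of wild-type C57BL/6 mice of both sexes, 8 to 12 weeks old, in 8 libraries. Phenylhydrazine (PHZ), which destroys red blood cells, was injected at 60 mg/kg on 2 days, and on day 3 after the last of these HSCs were sorted, giving 3 libraries of marrow cells (PHZ BM HSC) and 2 of spleen cells (PHZ SP HSC). Bone marrow HSCs of mice labelled PBS formed the control (control BM HSC, 3 libraries). Spleen HSCs of mice without PHZ were not analysed here, so for PHZ SP HSC relative to control BM HSC the organ and the drug cannot be told apart. Neither pooling of mice nor a separate mouse per library is given in the sources used here, and p-values then measure the spread between these libraries, which may be technical.

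Platelets are shed by megakaryocytes, which arise from HSCs along a route that shares factors and progenitors with red blood cells. Platelets adhere to damaged vessels when a complex of GP1BA, GP1BB, GP9 and GP5 binds von Willebrand factor, and aggregate when the integrin of ITGA2B and ITGB3 binds fibrinogen. Their alpha granules store proteins such as von Willebrand factor and platelet factor 4 and carry P-selectin and TREML1 in the membrane. Part of the HSC pool already carries RNA of these genes, and Vwf has been used to mark HSCs that lean toward platelets.

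The libraries held 8216626 to 13201359 recovered reads, of which the ribosomal precursor Rn45s took 43.3% to 48.6%. Levels are FPKM, fragments per kilobase of gene with sequencing depth scaled between libraries, so they can be compared between genes. The HSC label was checked against 10 HSC genes, all of which were tested and none of which passed an adjusted p of 0.05 in any of the 3 comparisons in limma, where 0.758%, 0.978% and 2.74% of all genes tested did (spleen relative to control, spleen relative to PHZ marrow and PHZ marrow relative to control). Unadjusted, 5, 3 and 1 of the 10 had a p under 0.05 in that order, where 15.8%, 13.5% and 16.6% of all genes did, and with voom weights 1, 0 and 0 passed. Their summed level was 299.8 to 412.8 FPKM in control BM HSC, 366.8 to 403.3 in PHZ BM HSC and 439.1 to 466.5 in PHZ SP HSC. Cd48, whose protein the sort selected against, measured 0 to 2.75 FPKM in control BM HSC, 0.179 to 3.38 in PHZ BM HSC, and 7.07 and 8.16 in PHZ SP HSC. Both spleen libraries lay above every marrow library, as in 15.2% of all genes relative to control BM HSC and 17.4% relative to PHZ BM HSC, and neither difference of Cd48 passed (limma adjusted p = 0.121 and 0.219).

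Markers of other blood cells were read in the same libraries. A list of 10 erythroid genes summed to 25.1 to 40.0 FPKM in control BM HSC, 23.7 to 47.3 in PHZ BM HSC and 105.0 to 177.4 in PHZ SP HSC. Of 9 tested 5 rose in the spleen relative to control BM HSC and 2 relative to PHZ BM HSC in limma. Of all genes tested 0.626% and 0.608% rose in these comparisons, and with voom weights 4 and 1 of the 9 passed. A list of 10 neutrophil genes summed to 429.7 to 739.2 FPKM in control BM HSC, 508.3 to 1060 in PHZ BM HSC and 1416 to 1806 in PHZ SP HSC. Of this S100a8 and S100a9 together gave 1122 and 1413 in the spleen. In each spleen comparison 1 of the 10 neutrophil genes rose, S100a8 (limma adjusted p = 0.0422 and 0.0281), calls lost without either spleen library (0.155 to 0.172), without any control library in the first (0.0527 to 0.0909) and without PHZ BM HSC replicates 1 or 2 in the second (0.101 and 0.104). Both were also lost with no filter on low values (0.0953 and 0.0892) and a replicate block (0.0763 and 0.0614), and the first with a pseudocount of 0.1 FPKM (0.0733). With voom weights 2 of the 10 passed in the first comparison and 1 in the second. The log2 fold change in the spleen was above 0 for 10 of 10 neutrophil genes against control BM HSC and for 9 of 10 against PHZ BM HSC, and 6 and 8 had an unadjusted p under 0.05. The exception, Prtn3, measured 81.5 to 109.9 FPKM in control BM HSC, 168.6 to 213.6 in PHZ BM HSC, and 111.1 and 132.9 in PHZ SP HSC. The summed level of 9 macrophage genes was 5.06 to 15.8, 7.98 to 21.8 and 40.6 to 62.0 FPKM, of which Cd68 alone gave 34.4 and 57.6 FPKM in the spleen. Of 5 macrophage genes tested none passed with limma or voom weights (3 and 2 had an unadjusted p under 0.05 against control and PHZ marrow), and 3 were above and 2 below control BM HSC in the spleen, with C1qb at 0.0822 and 0 FPKM there. Of 8 T and NK cell genes 2 were tested, and Klrb1c, which encodes the NK cell receptor NK1.1, measured 0.555 to 1.40 FPKM in control BM HSC, 2.31 to 3.07 in PHZ BM HSC, and 14.7 and 18.4 in PHZ SP HSC. It rose by 3.19 ± 0.28 on the log2 scale against control BM HSC (limma adjusted p = 0.000866) and by 2.30 ± 0.28 against PHZ BM HSC (adjusted p = 0.00477), the second lost without either spleen library (0.0576 and 0.0631). The other gene tested, Nkg7, measured 26.9 and 27.9 FPKM in the spleen, within the range of control marrow. All 3 B cell genes tested had a higher mean in the spleen and none passed with limma or voom weights (2 had an unadjusted p under 0.05 in each spleen comparison). The part of these cells or transcripts in the results was not tested.

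Promoter windows of RefSeq (build GRCm38.p6, 250 bases before to 50 after a start, 300 in all) were found for 7 of the 10 genes. They are shown for Pf4 and Selp, the only members whose difference passed the test, and for Gp9 and Gp5, partners in 1 receptor whose spleen libraries lay on opposite sides of PHZ marrow with neither difference past the test. Capitals mark GATAA, letters that GATA factors bind, and AGGAAG, letters that ETS factors such as FLI1 bind. Both strands were searched, and on the opposite strand they read TTATC and CTTCCT. Other forms of these sites were not searched for. No matches of the 2 motifs overlapped in these windows.
Pf4, chr5:90772185-90772484, plus strand: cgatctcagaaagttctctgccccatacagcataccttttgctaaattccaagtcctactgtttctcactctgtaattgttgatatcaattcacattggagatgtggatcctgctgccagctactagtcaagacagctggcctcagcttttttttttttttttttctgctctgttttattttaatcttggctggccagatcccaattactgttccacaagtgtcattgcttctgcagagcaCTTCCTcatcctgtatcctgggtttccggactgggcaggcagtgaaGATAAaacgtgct
Selp, chr1:164115014-164115313, plus strand: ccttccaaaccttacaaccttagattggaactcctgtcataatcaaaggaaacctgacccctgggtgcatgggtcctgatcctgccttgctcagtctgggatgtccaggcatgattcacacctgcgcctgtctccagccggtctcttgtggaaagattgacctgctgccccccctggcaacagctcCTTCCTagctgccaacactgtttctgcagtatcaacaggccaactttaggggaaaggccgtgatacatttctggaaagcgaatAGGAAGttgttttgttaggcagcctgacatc
Gp9, chr6:87777820-87778119, plus strand: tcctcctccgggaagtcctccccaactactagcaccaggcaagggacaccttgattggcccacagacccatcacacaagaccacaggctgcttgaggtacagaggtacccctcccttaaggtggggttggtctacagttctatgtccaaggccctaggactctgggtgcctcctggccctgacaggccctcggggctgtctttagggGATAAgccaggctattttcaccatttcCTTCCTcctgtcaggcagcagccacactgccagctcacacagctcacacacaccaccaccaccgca
Gp5, chr16:30310732-30311031, minus strand: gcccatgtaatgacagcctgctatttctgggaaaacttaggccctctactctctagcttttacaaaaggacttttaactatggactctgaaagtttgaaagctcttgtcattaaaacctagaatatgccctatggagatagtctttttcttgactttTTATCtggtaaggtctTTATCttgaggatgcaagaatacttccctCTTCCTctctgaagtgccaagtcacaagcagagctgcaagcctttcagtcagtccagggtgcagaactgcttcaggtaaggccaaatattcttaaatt
GATAA was present in 3 of the 7 windows, those of Pf4, Gp9 and Gp5, and in 25.4% of all 32851 windows. AGGAAG was present in 6 of the 7, Treml1 being the one without it, and in 35.4% of all windows. Both were present in the windows of Pf4, Gp9 and Gp5 and in 9.2% of all windows. The Selp window held AGGAAG at 2 places and no GATAA. A match describes the letters and not a bound site.

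The 10 genes did not move as a group. Fold changes are log2 differences of FPKM + 1, a scale that understates the change of low genes, and were tested with limma over 11347 genes that reached 1 FPKM in at least 2 libraries. Of the 10, 9 passed that filter and Gp1bb did not. In PHZ SP HSC relative to control BM HSC, 1 of the 9 passed an adjusted p of 0.05 (Selp, higher), where 0.758% of all genes tested did, 0.626% higher and 0.132% lower. In PHZ BM HSC relative to control BM HSC, 1 passed (Pf4, lower), where 2.74% of all genes did, 1.48% higher and 1.26% lower. In PHZ SP HSC relative to PHZ BM HSC none passed, where 0.978% of all genes did (0.608% higher, 0.37% lower), although 8 of the 9 had an unadjusted p under 0.05 and 13.5% of all genes did. With voom weights on the recovered reads none passed there either. In that comparison the 2 spleen libraries lay entirely above or below the 3 marrow libraries in 9 of the 10 genes, with Gp1bb overlapping, and in 34.8% of all genes tested. The spleen was the higher in 5 of these (Vwf, Pf4, Clu, Selp and Gp9) and the lower in 4 (Treml1, Itga2b, Itgb3 and Gp5), and each direction held 17.4% of all genes. Spleen and control libraries did not overlap in 3 genes, with Selp higher and Gp5 and Treml1 lower, and in 28.9% of all genes, 15.2% higher and 13.7% lower. PHZ BM HSC and control libraries did not overlap in 3 genes, with Selp and Itgb3 higher and Pf4 lower, and in 23.9% of all genes, 12.3% higher and 11.7% lower. The comparisons share libraries and are not independent of each other. In these bulk libraries fewer cells that carry a transcript and less RNA per cell cannot be told apart.

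**Figure D1:**
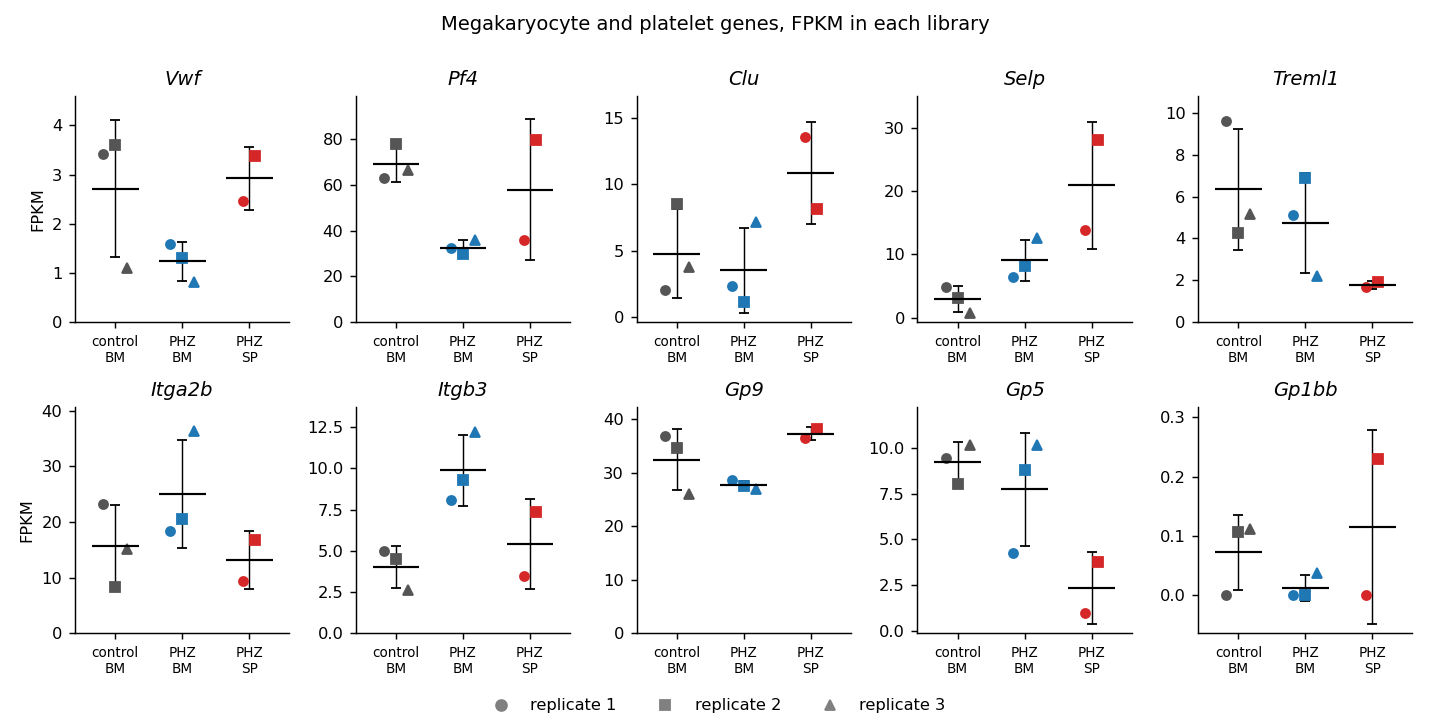
FPKM of each of the 10 genes (linear y axes, each with its own scale) in every library of control BM HSC, PHZ BM HSC and PHZ SP HSC; symbols give the replicate number, lines the group mean and bars the SD. Selp stood highest in the 2 spleen libraries (13.8 and 28.0 FPKM), Pf4 was lowest in PHZ BM HSC (29.7 to 35.9 FPKM), and Gp5 and Treml1 were lowest in the spleen.

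Selp encodes P-selectin, an adhesion receptor of alpha granules that endothelial cells also make. It measured 4.91, 3.11 and 0.793 FPKM in control BM HSC, 6.42, 8.08 and 12.6 FPKM in PHZ BM HSC, and 13.8 and 28.0 FPKM in PHZ SP HSC. No library of one group reached into another, and the order control marrow, PHZ marrow, PHZ spleen held in every library. The group means were 2.94 ± 2.07 (SD, n = 3), 9.04 ± 3.21 (n = 3) and 20.9 ± 10.1 FPKM (n = 2). On the log2 scale Selp rose by 2.56 ± 0.47 (SE; adjusted p = 0.0411, limma) in PHZ SP HSC relative to control BM HSC. The other steps were 1.47 ± 0.42 in PHZ BM HSC relative to control BM HSC (adjusted p = 0.10) and 1.09 ± 0.47 in PHZ SP HSC relative to PHZ BM HSC (adjusted p = 0.343). The call was lost when any of 6 libraries was left out, control BM HSC replicates 2 or 3, PHZ BM HSC replicates 1 or 2 or either spleen library (limma adjusted p = 0.0538 to 0.158), with log2 fold changes of 2.07 to 3.05. It was also lost with no filter on low values (limma adjusted p = 0.0892) and a pseudocount of 0.1 FPKM (0.0781). The same held for a fit of the 2 groups alone (0.0868) and a replicate block (0.0758). Transcripts antisense to Selp are annotated as overlapping the gene (chr1:164115264-164150026, plus strand), and without strand their reads cannot be told apart.

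Endothelial markers were read beside Selp. The summed level of 10 such genes was 113.3 to 137.6 FPKM in control BM HSC, 127.7 to 159.5 in PHZ BM HSC and 183.9 to 211.8 in PHZ SP HSC, and most of it came from Esam and Eng, which HSCs also express. Of 6 markers tested 1, the tight junction gene Cldn5, rose in each spleen comparison, where 0.626% and 0.608% of all genes tested did. Cldn5 measured 7.37, 12.6 and 0.989 FPKM in control BM HSC and 3.17, 4.74 and 7.26 in PHZ BM HSC. In PHZ SP HSC it measured 41.7 and 87.7 FPKM. The rise was 3.34 ± 0.65 against control BM HSC (limma adjusted p = 0.0470) and 3.40 ± 0.65 against PHZ BM HSC (adjusted p = 0.0369). The Cldn5 calls were lost without any of 6 libraries in the first (control BM HSC replicate 1, each PHZ BM HSC and each spleen library, adjusted p = 0.0580 to 0.177) and without any of 4 in the second (PHZ BM HSC replicates 1 or 2 and each spleen library, 0.119 to 0.191). Both were also lost with a pseudocount of 0.1 FPKM (limma adjusted p = 0.0951 and 0.0947) and with no filter on low values (0.105 and 0.104). A replicate block lost both as well, and the 2 groups alone the first (0.0992). Unadjusted, 2 of the 6 had a limma p under 0.05 in each spleen comparison, where 15.8% and 13.5% of all genes did. Beside Cldn5 this was Tek (limma adjusted p = 0.167 and 0.34). It measured 3.86 to 4.36 FPKM in control BM HSC, 3.96 to 6.64 in PHZ BM HSC, and 8.77 and 7.14 in PHZ SP HSC. The log2 fold change was above 0 in 5 of the 6 against control and in 3 against PHZ marrow. The defining endothelial genes Cdh5 and Flt1 were near 0, with at most 0.255 and 0.153 FPKM in any library. Cdh5 had 12 reads in PHZ SP HSC replicate 1 and at most 1 in each other library. Plvap and Stab2, markers of sinusoidal endothelium, measured 6.71 and 4.36 FPKM in PHZ SP HSC replicate 1 and 0 and 0.307 FPKM in replicate 2. Between the spleen libraries 8 of the 10 markers were higher in replicate 1, which had less Selp, and 2, Cldn5 and Esam (51.9 and 61.0 FPKM), were higher in replicate 2, which had more. The summed list was higher in replicate 2 (183.9 and 211.8 FPKM), and without Cldn5 it was higher in replicate 1 (142.2 and 124.1 FPKM). The part of endothelial RNA in the Selp result was not tested.

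Pf4, the chemokine platelet factor 4, was the most abundant of the 10 genes by its mean over the 8 libraries. It measured 63.1, 77.8 and 66.5 FPKM in control BM HSC and 32.3, 29.7 and 35.9 FPKM in PHZ BM HSC, and the 3 libraries of each group stood apart. It fell by 1.06 ± 0.24 on the log2 scale in PHZ BM HSC (limma adjusted p = 0.0424). The call was lost when any of the 6 marrow libraries was left out (adjusted p = 0.0657 to 0.165), with log2 fold changes of -1.13 to -0.97. It was also lost with voom weights (0.0839), with no filter on low values (0.108) and with a pseudocount of 0.1 FPKM (0.0501). In the spleen the libraries were split, with 36.1 FPKM in replicate 1, just above the highest PHZ marrow library, and 79.7 FPKM in replicate 2, above every control library. Against control BM HSC the spleen difference was -0.35 (95% interval -0.95 to 0.24) and against PHZ BM HSC 0.71 (0.11 to 1.30, limma adjusted p = 0.282).

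Vwf, the adhesive protein that carries platelets onto collagen, was low throughout. It measured 3.41, 3.61 and 1.10 FPKM in control BM HSC, 1.58, 1.31 and 0.809 in PHZ BM HSC, and 2.47 and 3.37 in PHZ SP HSC. Both spleen libraries lay above the 3 PHZ marrow libraries, while control replicate 3 lay within the PHZ marrow range. The log2 fold change was -0.66 ± 0.33 in PHZ BM HSC relative to control BM HSC (limma adjusted p = 0.342), 0.82 ± 0.37 in PHZ SP HSC relative to PHZ BM HSC (adjusted p = 0.367) and 0.16 ± 0.37 in PHZ SP HSC relative to control BM HSC (adjusted p = 0.878). The interval of the last, -0.66 to 0.97, does not show that the groups were alike.

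Clu, the secreted chaperone clusterin that alpha granules also hold, varied widely within groups. It measured 2.08, 8.53 and 3.76 FPKM in control BM HSC, 2.33, 1.15 and 7.18 in PHZ BM HSC, and 13.6 and 8.16 in PHZ SP HSC. The highest PHZ marrow library was 6.27 times the lowest, and the lower spleen library lay below control replicate 2. The spleen difference was 1.16 ± 0.56 against control BM HSC (limma adjusted p = 0.341) and 1.58 ± 0.56 against PHZ BM HSC (adjusted p = 0.242).

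Treml1, a receptor of the alpha granule membrane, had its lowest levels in the spleen. It measured 9.63, 4.26 and 5.16 FPKM in control BM HSC, 5.10, 6.91 and 2.21 in PHZ BM HSC, and 1.66 and 1.92 in PHZ SP HSC. Both spleen libraries lay below all 6 marrow libraries. The difference was -1.33 ± 0.40 against control BM HSC (limma adjusted p = 0.144) and -0.95 ± 0.40 against PHZ BM HSC (adjusted p = 0.332), neither past the threshold.

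The 2 chains of the fibrinogen receptor both had their highest group mean in PHZ BM HSC. Itga2b, which encodes CD41, measured 23.3, 8.38 and 15.2 FPKM in control BM HSC, 18.4, 20.5 and 36.3 in PHZ BM HSC, and 9.43 and 16.8 in PHZ SP HSC. Itgb3, its partner CD61, measured 4.98, 4.48 and 2.61 FPKM in control BM HSC, 8.08, 9.33 and 12.2 in PHZ BM HSC, and 3.49 and 7.36 in PHZ SP HSC. PHZ marrow stood above control marrow in all libraries for Itgb3 and overlapped with it for Itga2b, and PHZ spleen lay below PHZ marrow for both. In PHZ BM HSC relative to control BM HSC the log2 fold change was 1.13 ± 0.30 for Itgb3 (limma adjusted p = 0.0733) and 0.69 ± 0.36 for Itga2b (adjusted p = 0.362). With voom weights on the recovered reads Itgb3 passed the threshold (1.40, adjusted p = 0.0414). In PHZ SP HSC relative to PHZ BM HSC the values were -0.81 ± 0.33 and -0.87 ± 0.40 (adjusted p = 0.312 and 0.375). PHZ spleen and control marrow overlapped for both, with differences of 0.32 (95% interval -0.41 to 1.05) for Itgb3 and -0.18 (-1.06 to 0.70) for Itga2b.

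The von Willebrand factor receptor was uneven. Gp9 was nearly level, with 36.8, 34.5 and 26.0 FPKM in control BM HSC, 28.6, 27.5 and 27.0 in PHZ BM HSC, and 36.4 and 38.2 in PHZ SP HSC. Its largest difference was 0.42 on the log2 scale in PHZ SP HSC relative to PHZ BM HSC (95% interval 0.01 to 0.82, limma adjusted p = 0.359), and spleen and control libraries overlapped. Gp5 measured 9.45, 8.0 and 10.2 FPKM in control BM HSC, 4.25, 8.77 and 10.1 in PHZ BM HSC, and 0.977 and 3.76 in PHZ SP HSC. Both spleen libraries lay below all 6 marrow libraries, with 24 and 86 reads, and PHZ BM HSC replicate 1 was close to the higher of them. The difference was -1.73 ± 0.40 against control BM HSC (limma adjusted p = 0.0747) and -1.44 ± 0.40 against PHZ BM HSC (adjusted p = 0.131). Gp1bb, whose product is bound to GP1BA, was barely detected, with 0, 2 and 3 reads in control BM HSC, 0, 0 and 1 in PHZ BM HSC, and 0 and 5 in PHZ SP HSC. A count of 0 allows up to 3 reads, which here are worth 0.125 FPKM, and no difference was detectable at this depth. Gp1bb (chr16:18620317-18622403, minus strand) overlaps annotated Sept5 and Gm49601 on the same strand, so its few reads are uncertain.

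**Figure D2:**
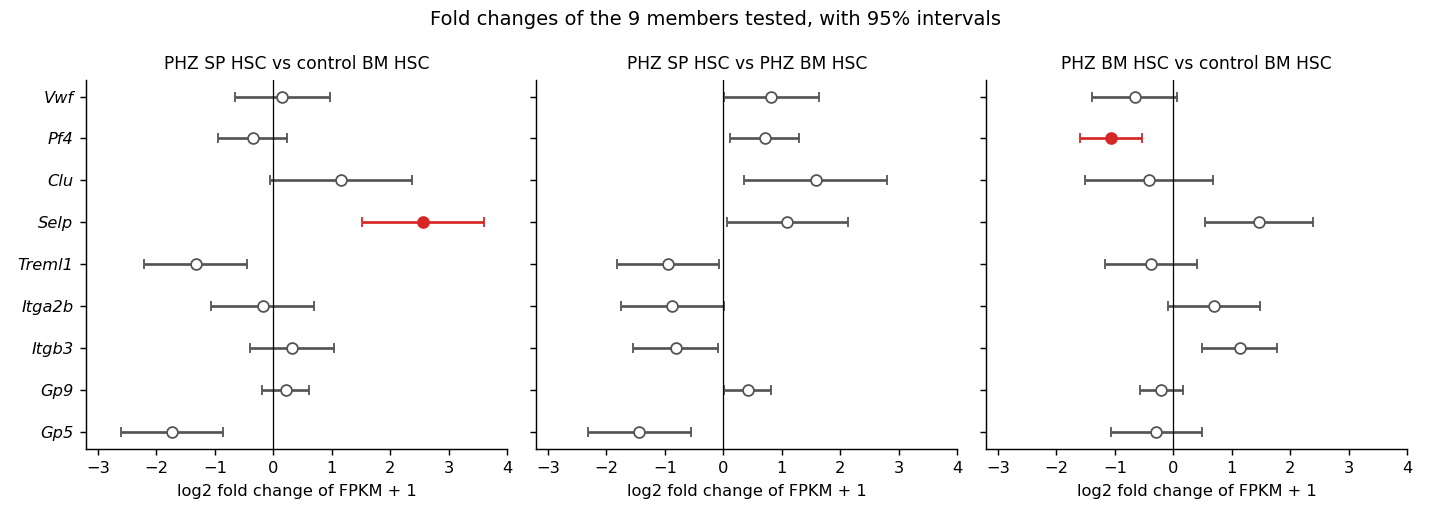
Log2 fold change of FPKM + 1 (x axis) for the 9 genes tested, 1 panel for each comparison; points are limma estimates, bars 95% intervals, and red filled points passed an adjusted p of 0.05. Only Selp in PHZ SP HSC relative to control BM HSC (2.56) and Pf4 in PHZ BM HSC relative to control BM HSC (-1.06) passed.

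The 2 spleen libraries disagreed on several of these genes. On the log2(FPKM + 1) scale replicate 2 was above replicate 1 by 1.27 for Gp5, 1.12 for Pf4, 0.97 for Selp, 0.90 for Itgb3 and 0.77 for Itga2b, while the difference was -0.67 for Clu. Vwf, Treml1 and Gp9 differed by 0.33, 0.14 and 0.07. Of the 9 genes tested 8 were higher in replicate 2, against 50.2% of all genes tested, and 6 were farther apart than the median gene, whose libraries differed by 0.34. At least 1 apart were 2 of the 9, Gp5 and Pf4, and 9.91% of all genes. The libraries held 10742508 and 10815613 recovered reads in all and 6020314 and 5561336 without Rn45s, a difference that the size factors scale. Fits with a single spleen library take its spread from the other groups. In them Gp5 against control BM HSC was -2.36 with replicate 1 alone (limma adjusted p = 0.0580) and -1.09 with replicate 2 alone (adjusted p = 0.359). Pf4 against PHZ BM HSC was 0.15 with replicate 1 alone and 1.27 with replicate 2 alone, and Pf4 against control BM HSC turned from -0.91 to 0.21. Selp stayed above control BM HSC with either, at 2.07 and 3.05, and Treml1 stayed below, at -1.40 and -1.26.

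**Figure D3:**
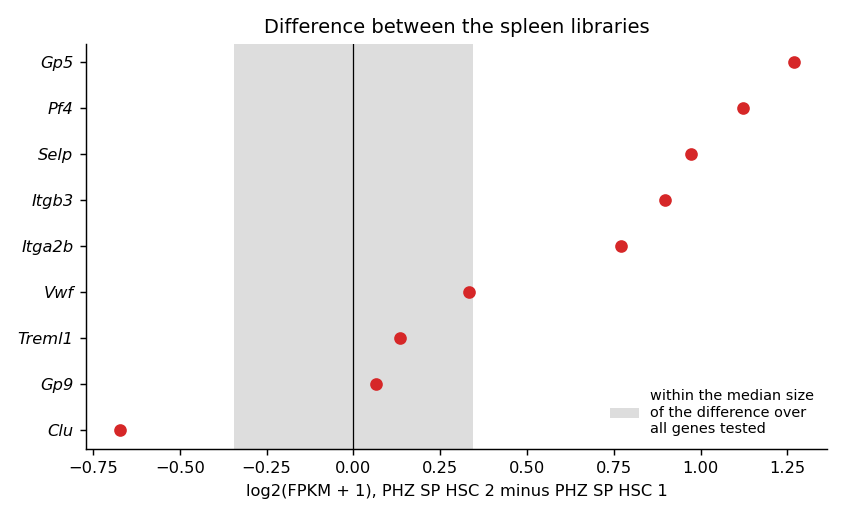
Difference in log2(FPKM + 1) between the spleen libraries (x axis, PHZ SP HSC replicate 2 minus replicate 1) for the 9 genes tested; the grey band covers differences no larger than the median size over all genes tested, 0.34. Gp5, Pf4, Selp, Itgb3 and Itga2b lay above the band and Clu below it.

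Beyond the 10, 49 related megakaryocyte genes were read in 4 lists, of which 39 were tested. In PHZ BM HSC relative to control BM HSC 3 rose and 1 fell, where 1.48% of all genes tested rose and 1.26% fell, and 8 of the 39 had an unadjusted p under 0.05, where 16.6% of all genes did. In the spleen comparisons none passed (13 and 12 of 39 had an unadjusted p under 0.05, against control and PHZ marrow, where 15.8% and 13.5% of all genes did, and with voom weights 0 passed). The median log2 fold change over the 39 was 0.07 in PHZ SP HSC relative to control BM HSC, -0.10 against PHZ BM HSC and 0.11 in PHZ BM HSC relative to control BM HSC, beside 0.00, -0.02 and 0.01 over all genes tested.

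Of 12 granule genes 8 were tested, and 2 rose and 1 fell in PHZ BM HSC. Ppbp, the chemokine gene next to Pf4 on chromosome 5 with 2372 bases between them, measured 8.03, 5.51 and 5.6 FPKM in control BM HSC, 1.5, 3.05 and 0.857 in PHZ BM HSC, and 3.39 and 2.93 in PHZ SP HSC. It fell by 1.46 ± 0.30 on the log2 scale in PHZ BM HSC (limma adjusted p = 0.0265), as Pf4 did, and its spleen libraries also lay below all control libraries (-0.81 ± 0.34, adjusted p = 0.273). The granule secretion gene Vamp8 measured 105.6 to 107.7 FPKM in control BM HSC, 150.6 to 163.8 in PHZ BM HSC, and 111.7 and 112.3 in PHZ SP HSC. It rose by 0.56 ± 0.11 in PHZ BM HSC (limma adjusted p = 0.0219), and the spleen libraries stood near the control level. The granule membrane gene Cd63 measured 125.9 to 172.5 FPKM in control BM HSC, 196.1 to 253.3 in PHZ BM HSC, and 136.2 and 129.8 in PHZ SP HSC. It rose by 0.64 ± 0.15 in PHZ BM HSC (limma adjusted p = 0.0478), again with spleen libraries within the control range. These calls were lost without single libraries: for Ppbp without control BM HSC replicates 1, 2 or 3 or PHZ BM HSC replicates 1 or 3 (adjusted p = 0.0527 to 0.118) with voom weights (0.156) and with no filter on low values (0.0656), for Vamp8 without control BM HSC replicates 1, 2 or 3 or PHZ BM HSC replicates 1 or 2 (0.0581 to 0.147), and for Cd63 without any library but control BM HSC replicate 2 (0.0756 to 0.151). Cd63 was also lost with the FPKM as deposited (limma adjusted p = 0.0520), a pseudocount of 0.1 FPKM (0.0528), no filter (0.10), the 2 groups alone (0.0759) and a replicate block (0.0644). With voom weights 3 of the 8 granule genes passed in PHZ BM HSC relative to control BM HSC, and Ppbp was not among them.

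Of 10 transcription factor genes all were tested and 1 rose. Gata2, a GATA factor of HSCs and early megakaryocytes, measured 41.3, 47.7 and 36.2 FPKM in control BM HSC, 75.8, 86.3 and 66.7 in PHZ BM HSC, and 58.0 and 72.9 in PHZ SP HSC. It rose by 0.86 ± 0.16 in PHZ BM HSC (limma adjusted p = 0.0180), a call lost without control BM HSC replicates 1 or 3 or PHZ BM HSC replicates 1 or 2 (adjusted p = 0.0561 to 0.113). Both spleen libraries lay above all control libraries as well (0.64 ± 0.18, adjusted p = 0.127). Gata1, the GATA factor shared by red cells and megakaryocytes, measured 2.23 to 5.44 FPKM in control BM HSC, 2.54 to 6.33 in PHZ BM HSC, and 8.58 and 6.19 in PHZ SP HSC (0.88 ± 0.38 against control, limma adjusted p = 0.293). Fli1, an ETS factor of megakaryocytes, measured 21.8 to 31.0 FPKM over the 8 libraries, with a spleen difference of 0.13 from control (95% interval -0.28 to 0.54).

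Of 15 receptor genes 11 were tested and none passed in any comparison, with limma or with voom weights. Unadjusted, 5, 5 and 0 had a limma p under 0.05, where 15.8%, 13.5% and 16.6% of all genes did. The order is spleen relative to control, spleen relative to PHZ marrow, PHZ marrow relative to control. Slamf1, which encodes the CD150 used in the sort, measured 2.74 to 9.20, 2.25 to 4.12, and 6.83 and 6.10 FPKM in control BM HSC, PHZ BM HSC and PHZ SP HSC. Gp1ba, the chain that binds von Willebrand factor, measured 2.03 to 2.86, 0.842 to 3.19, and 0.0329 and 1.03 FPKM, with 1 and 29 reads in the spleen libraries (-1.24 ± 0.40 against control, adjusted p = 0.164). Its spleen libraries lay below all control libraries, as those of its partner Gp5 did, and replicate 1 was again the lower. F2rl2, a thrombin receptor chain, measured 0.354 to 1.59, 0.596 to 2.69, and 4.47 and 2.57 FPKM (1.10 ± 0.42 against control, adjusted p = 0.234).

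Of 12 cytoskeleton and signalling genes 10 were tested and none passed with limma or with voom weights. In the same order of comparisons 3, 3 and 2 had an unadjusted limma p under 0.05, where 15.8%, 13.5% and 16.6% of all genes did. Tubb1, the tubulin of the platelet's marginal band, measured 5.31, 0.629 and 5.14 FPKM in control BM HSC, 1.49, 0 and 0.385 in PHZ BM HSC, and was listed at 0 in both spleen libraries (limma adjusted p = 0.128 against control). Without control BM HSC replicate 2, its low control library, it passed (adjusted p = 0.0333). Myl9, a myosin light chain, measured 6.60, 0.381 and 3.01 FPKM in control BM HSC, 0.328, 0 and 0.0666 in PHZ BM HSC, and 5.0 and 2.81 in PHZ SP HSC. Its spleen libraries lay above all PHZ marrow libraries (2.09 ± 0.57, limma adjusted p = 0.124), a difference that passed in a fit of the 2 groups alone (adjusted p = 0.0218) and without control BM HSC replicate 2 (0.0282).

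**Figure D4:**
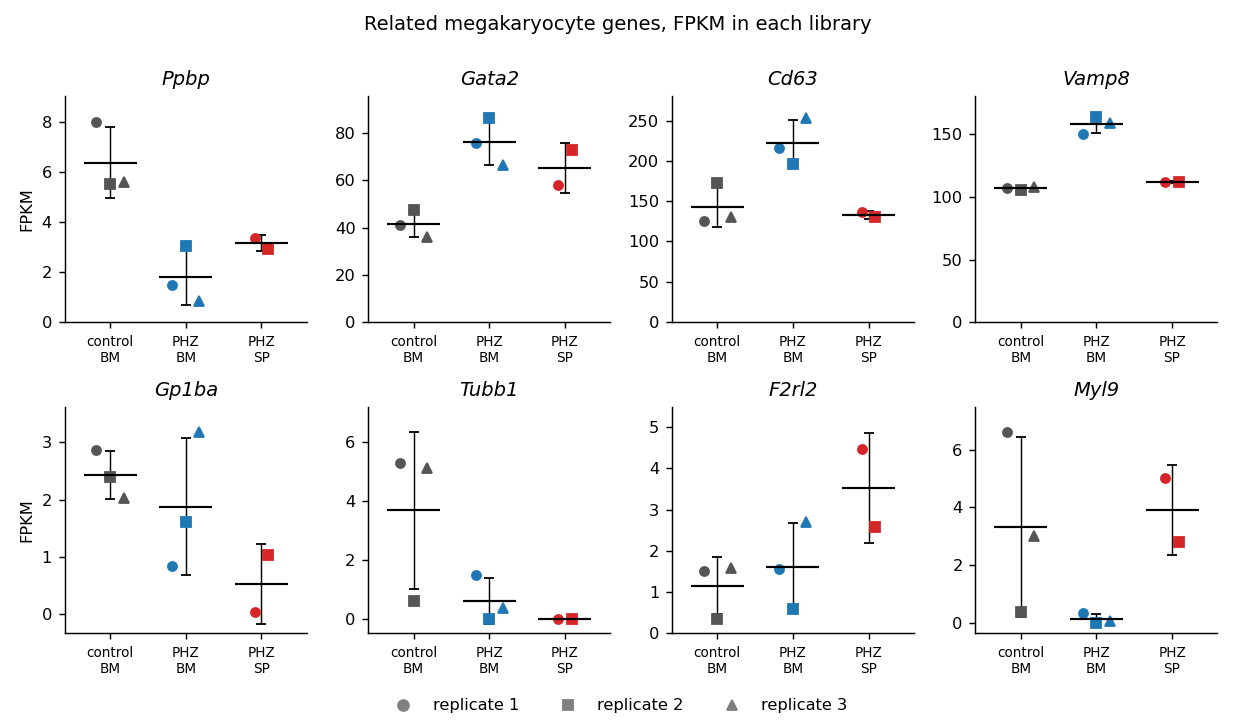
FPKM of 8 related genes (linear y axes, each with its own scale) in every library; symbols give the replicate number, lines the group mean and bars the SD. Ppbp was lower and Gata2, Cd63 and Vamp8 were higher in PHZ BM HSC than in control BM HSC, while Gp1ba and Tubb1 had their lowest and F2rl2 its highest group mean in the spleen.

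Likeness across the 8 libraries was read as a description, since they share groups and depth. Among the 36 pairs of the 9 genes tested Pearson's r of log2(FPKM + 1) was above 0 in 19 and below 0 in 17, with a median of 0.02. The most alike pairs were Vwf with Gp9 (r = 0.93) and Itga2b with Itgb3 (r = 0.70). The genes most like Vwf over all genes tested were Tmem33 (r = 0.98), B3gat3, Tm2d1, Hacd4 and Tnip3 (0.94), and those most like Pf4 were Mzt1 (0.98), Haus2, G2e3, Eme1 and Mdh1 (0.95).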

How the data were processed

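RNA of sorted HSCs (lineage- Sca-1+ c-kit+ CD150+ CD48-/low) was made into SMART-Seq2 and Nextera XT libraries, with no molecular identifiers, so a limit given in reads covers only the error of counting. The authors mapped reads to mm10 with STAR and compared groups with DESeq2, and their tables of log2 fold changes and p-values were not used. The gene counter, annotation and strand setting are not given in the sources used here. The marrow columns are named WBM where the sample titles say BM HSC, and were taken as sorted HSCs.

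The authors deposited FPKM in 3 tables of separately scaled libraries. Of 110442 values above 0, 100% were whole multiples of the value of 1 read within 0.001 reads, and the recovered reads are fixed up to a common factor for each gene. All 8 libraries were then put on common median-of-ratios factors, which moved no library by over 1.052%. limma 3.58.1 (R 4.3.3) was fitted to log2(FPKM + 1) with trend and robust options, all 8 libraries and group as the only factor, two-sided, with Benjamini-Hochberg adjustment over 11347 genes with at least 1 FPKM in 2 libraries. Alternatives were the FPKM as deposited, TMM factors, a pseudocount of 0.1, no filter, 1 FPKM in every library of a group, voom on recovered reads, the 2 groups alone, a replicate block and leaving out each library. Members, lists and tests were chosen with earlier results of these data known. Named genes were the members, related genes past the threshold or else the 2 with the largest change of a list, Gata1, Fli1, Slamf1 and the 5 most like Vwf and Pf4. A gene that the rule also names is not reported here. Marker genes of other cell types were named after their values were seen. Endothelial markers were read because endothelial cells also make P-selectin. Libraries of a group differed by 7.91 to 32.6 times the sampling noise of their reads (chi-square per degree of freedom), and none was counted as a repeat. Coordinates are from GENCODE M21 (GRCm38, the build mm10).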

Additional observations from a re-analysis of the deposited data

How the results depend on the processing

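The 2 calls among the 10 genes were close to the threshold. With a pseudocount of 0.1 FPKM and with no filter on low values, 0 members passed in limma in PHZ SP HSC relative to control BM HSC and 0 in PHZ BM HSC relative to control BM HSC; in the first 0 passed also with only the 2 groups compared and with a replicate block. Unadjusted, 3 of the 9 had p under 0.05 in each of these comparisons in the fit reported, where 15.8% and 16.6% of all genes did. For Selp the adjusted p was 0.0243 to 0.0892 over 8 such settings and for Pf4 0.00921 to 0.108, with log2 fold changes of 2.44 to 3.23 and -1.08 to -1.05. Among the related genes 2 passed with no filter in PHZ BM HSC relative to control BM HSC, and 1, Myl9, with only the 2 groups compared in PHZ SP HSC relative to PHZ BM HSC.

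Leaving out 1 library at a time gave 0 to 1 members called in PHZ SP HSC relative to control BM HSC, 0 to 1 in PHZ BM HSC relative to control BM HSC and 0 in PHZ SP HSC relative to PHZ BM HSC. The related genes called ranged over 0 to 1, 0 to 4 and 0 to 2 in the same order. Differences that changed sign were not called in any setting. In PHZ SP HSC relative to control BM HSC they were Vwf (-0.21 to 0.36), Pf4 (-0.91 to 0.21), Itga2b (-0.57 to 0.20) and Itgb3 (-0.13 to 0.77), and in PHZ BM HSC relative to control BM HSC Clu (-0.96 to 0.019) and Gp5 (-0.51 to 0.037).

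Same-numbered libraries did not deviate together (r of deviations from the group means -0.01 to 0.06), so the numbers were not taken as pairs. With the replicate block Vwf was -0.10 in PHZ SP HSC relative to control BM HSC and Selp 2.44 (adjusted p = 0.0758), and the calls of Cd63 (0.0644), Cldn5 (0.0775 relative to control BM HSC, 0.0650 relative to PHZ BM HSC) and S100a8 (0.0763 and 0.0614) were lost, while 73, 112 and 294 of all genes passed in place of 86, 111 and 311. In the marrow comparison 3 of 6 libraries correlated best with their own number. The causes of these changes were not tested. With 2 spleen libraries, and with under 100 reads for Treml1 and Gp5 in each of them, small differences were not detectable.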
